A study of Homo sapiens with 6 samples.

Results

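OVCAR3, an established line of high-grade serous ovarian carcinoma, was transfected with siBHLHE41 #A, siBHLHE41 #B or siControl, and the RNA of each culture was read on 1 Affymetrix Clariom S array. These 3 of the 6 arrays of the series were chosen by their labels, and they are described here gene by gene as the normalized log2 value with each siRNA minus the siControl value. The other 3 arrays hold RMG1, an established clear cell carcinoma line, transfected with siCPNE8 #A, siCPNE8 #B or siControl, and their values are given only where the lines are compared, although their spread also enters every standard error and p from limma. Both siRNAs against BHLHE41 differ in sequence, and both were set against the same siControl array. No source says whether the transfections were independent experiments. The spread given below is the spread between 2 siRNAs with 1 array each, and how much of it is technical cannot be told. The sample labels and the study's methods name opposite media for the lines (RPMI for OVCAR3 in the labels, DMEM in the methods), and the time from transfection to RNA isolation for the arrays was not given. Of 17687 named genes, 7345 lay above background on the OVCAR3 arrays, where background is the 95th percentile of 612 negative controls, and 10342 did not and are kept apart.

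BHLHE41 (also called DEC2 or SHARP1) is a transcription factor of the basic helix-loop-helix (bHLH) class. Such proteins bind E-box sites in promoters, and BHLHE41 and its close relative BHLHE40 act there as repressors, among other places at genes of the circadian clock, where they oppose the activators CLOCK and BMAL1. The clock runs as a loop in which CLOCK and BMAL1 switch on the genes of their own repressors, and RORA and the NR1D proteins set the level of BMAL1. In serous ovarian carcinoma the cells keep the Mullerian factor PAX8 and the surface mucin MUC16, the source of the CA125 antigen.

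The OVCAR3 arrays carried the epithelial and Mullerian genes of the labelled line. PAX8 read 14.00 with #A, 14.38 with #B and 13.87 with siControl, EPCAM read 15.68, 15.40 and 15.62, and KRT7, KRT8, KRT18 and MUC16 were all above background on every OVCAR3 array. WT1, a serous marker, was close to background at 8.23, 8.05 and 8.71, and MSLN and ESR1 were not above it. None of the 22 measured immune genes was above background (the highest siControl value was 7.94), and 1 of 10 fibroblast genes and 1 of 11 endothelial genes were. In RNA of a whole culture, fewer cells of a type and less RNA per cell cannot be told apart. The 95th percentile of the negative controls was 8.47 with #A, 7.97 with #B and 8.17 with siControl, and 37.2%, 40.9% and 39.0% of the transcript probes exceeded it. Deposited values reached 18.35 on the log2 scale, above the 16 that a 16-bit scanner can give, so the values had been rescaled in a way that no source describes, and a log2 difference may be stretched or shrunken.

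The siBHLHE41 arrays differed from each other about as much as each differed from siControl. Across the 21448 transcript probes the median absolute difference was 0.24 between #A and #B, 0.24 between #A and siControl and 0.25 between #B and siControl, on the log2 scale. Among the 7345 genes above background, 241 were over 1.5-fold with each siRNA, which is 3.28% of those genes, and 136 were under 0.66-fold with both, which is 1.85%. Centring each array on the median of the housekeeping list added 0.32 to every mean difference. These counts were then 929 and 41, so the split between higher and lower depends on that choice. Counts of list members after this centring, given below, stand beside these. At background, 300 of 10342 genes (2.9%) were over 1.5-fold and 243 (2.35%) were under 0.66-fold for each siRNA, shares of the same order as above background. Of the genes above background, 69.9% stayed within 0.5 of siControl on the log2 scale with both siRNAs, and the median gene had an SD of 0.16 between the siRNAs. Limma called 0 transcript probes higher (0.0%) and 0 lower (0.0%) at an adjusted p of 0.05, with a smallest adjusted p of 0.783. At an unadjusted p of 0.05 it listed 634 higher and 465 lower. The terms higher and lower below therefore give the place of a value relative to siControl and not a call by limma. Both differences of a gene subtract the same siControl value, so their agreement in sign is partly built in. Counts of list members on the same side with both siRNAs have no share over all genes beside them, as that share was not counted. FAM168A, at +0.59 and +0.93, was the gene just inside the upper ratio, and PJA2, at +0.61 and +0.58, was just outside it. SNAPC1, at -1.49 and -0.60, was just inside the lower ratio, and ATAD3A, at -0.60 and -0.87, was just outside it.

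**Figure D1:**
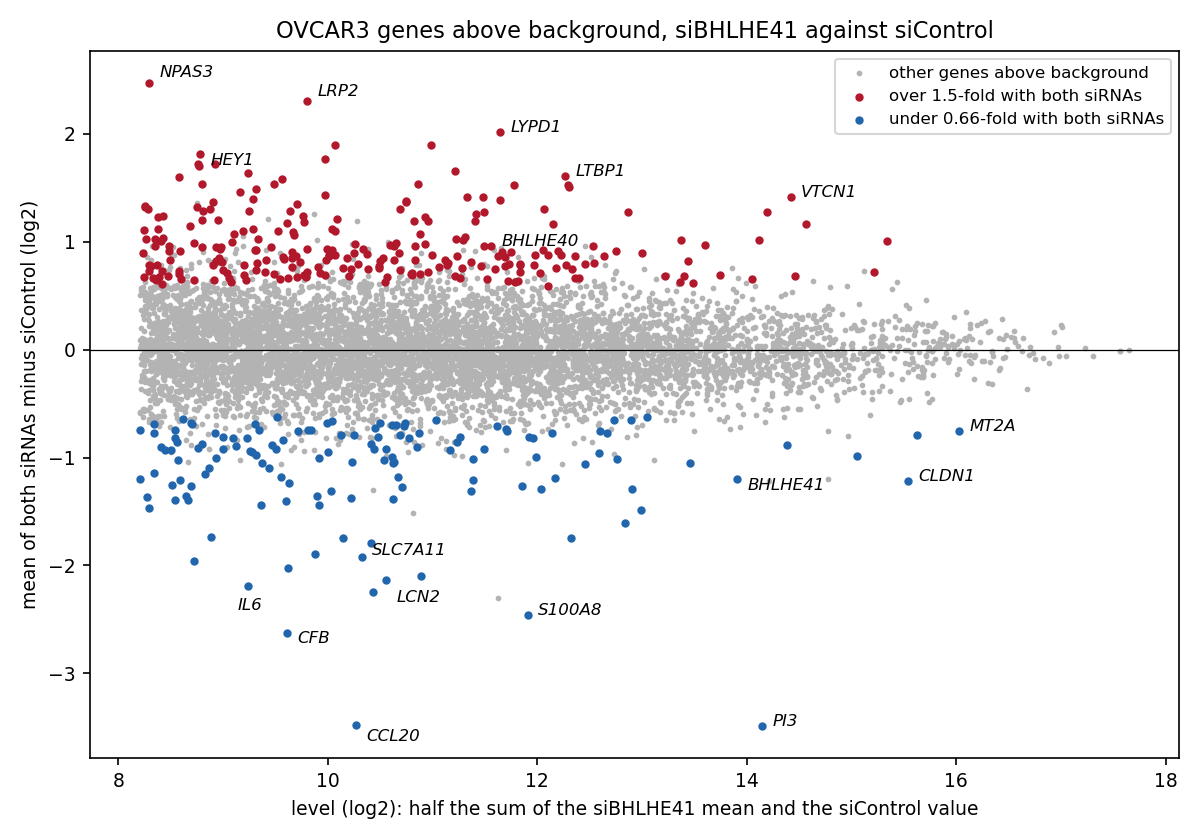
Mean log2 difference of both siRNAs from siControl (vertical axis) against level (horizontal axis, log2) for the 7345 genes above background in OVCAR3. Red points are the 241 genes over 1.5-fold and blue points the 136 genes under 0.66-fold for each siRNA, and PI3 and CCL20 lie lowest of all at -3.48.

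The targeted gene was lower with each siRNA. BHLHE41 read 12.99 with #A and 13.63 with #B, against 14.51 with siControl, and both knockdown values remained far above background. The signal with #A was 0.35 of that with siControl, and with #B it was 0.542. The mean log2 difference was -1.20 ± 0.45 (SD, n = 2 siRNAs), with a standard error of 0.34, and limma gave it an unadjusted p of 0.00979 (adjusted p = 0.914). BHLHE41 was thus less reduced by #B than by #A, by 0.63 on the log2 scale. After centring on the housekeeping list the differences were -1.21 for #A and -0.54 for #B, so that #B no longer passed the ratio.

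BHLHE40, the closest relative of BHLHE41, lay in the opposite direction. It read 11.94 with #A and 12.14 with #B, against 11.08 with siControl, a mean log2 difference of +0.96 ± 0.14 (SD, n = 2 siRNAs). Its level was 1.82-fold and 2.09-fold that of siControl, and limma gave an adjusted p of 0.914. Of the 10 measured clock repressors, 6 were above background, with BHLHE40 over 1.5-fold and BHLHE41 under 0.66-fold. Among all genes above background, 3.28% were over 1.5-fold and 1.85% under 0.66-fold. NR1D2, a heme receptor that represses BMAL1, read 13.37 and 13.13 against 13.27, and CIART, a repressor of CLOCK and BMAL1, read 9.47 and 9.82 against 9.56. PER3 read 10.78 and 11.18 against 10.87, so the period gene that could be read here lay on either side of siControl. NFIL3, a repressor that competes with activators of clock-driven genes, read 8.17 and 8.68 against 8.80 and was not above background with #A. CRY1, a further clock repressor, read 6.74 and 6.54 against 7.40 and passed the lower ratio with both siRNAs. It was not above background on any OVCAR3 array, so no fold is given.

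All 4 clock activators above background read lower than siControl with both siRNAs, their median being -0.39, and -0.07 after centring on the housekeeping list. RORA, the receptor that activates BMAL1, stood out among them at 9.61 with #A and 10.53 with #B, against 11.34 with siControl. Its mean difference was -1.27 ± 0.65 (SD, n = 2 siRNAs), and it was the only 1 of these 4 under 0.66-fold with both siRNAs. After centring on the housekeeping list, its difference of -0.47 with #B no longer passed the ratio. CLOCK read 11.13 and 10.58 against 11.33. BMAL2 (10.15 and 10.18 against 10.46) and NPAS2 (12.46 and 12.19 against 12.47) lay closer to siControl, and after centring on the housekeeping list their differences turned to +0.02 and +0.17. BMAL1 itself, at 7.32 and 7.55 against 8.24, also passed the lower ratio with both siRNAs. It was above background with siControl only, and so close to background that no fold is given.

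Among the kinases, ubiquitin ligases and outputs of the clock, 2 of the 6 genes above background were over 1.5-fold and none was under 0.66-fold. For all genes above background these shares were 3.28% and 1.85%. WEE1, the kinase that holds cells before mitosis and a classical clock output, read 12.95 and 12.75 with the siRNAs, against 12.06 with siControl (mean +0.79 ± 0.14, SD, n = 2 siRNAs). BTRC, the ligase that marks PER proteins and also the NF-κB inhibitor IκBα for degradation, read 11.72 and 11.98 against 11.08 (mean +0.77 ± 0.18, SD, n = 2 siRNAs). CSNK1D, a kinase of PER proteins, read 11.12 and 10.996 against 10.53 and did not reach the ratio. NOCT, a clock-driven NADP phosphatase, read 9.12 and 9.13 against 9.29, and this turned to +0.16 after centring on the housekeeping list.

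All 9 members above background of the list of bHLH inhibitors, HES-family repressors and their E-protein partners read higher than siControl with both siRNAs, the median difference being +0.52 for #A, +0.78 for #B. Of these, 3 of the 9 were over 1.5-fold with both, beside 3.28% of all genes above background. HEY1 and HEY2 were not above background in siControl and stand among the 9 only through the knockdown arrays where they were high, and of the 7 members above background in siControl 2 were over 1.5-fold. HEY1, a Notch-induced repressor, read 9.02 and 10.36 against 7.88, where the siControl value was not above background. The mean of both siRNAs was therefore at least 2.86-fold higher, and such bounds below also refer to that mean. With #A alone the measured fold of HEY1 was 2.20. HES1, the main Notch target of the same family, read 11.49 and 11.61 against 10.74, and ID1, which sequesters bHLH factors and is a target of BMP signaling, read 12.71 and 12.61 against 11.78. Both of these differed little between the siRNAs, with an SD of 0.09 for HES1 and 0.07 for ID1. HEY2 (8.35 and 10.52 against 8.08) was above background only with #B, and ID2 (10.41 and 9.02 against 8.66) was past the ratio with #A alone.

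**Figure D2:**
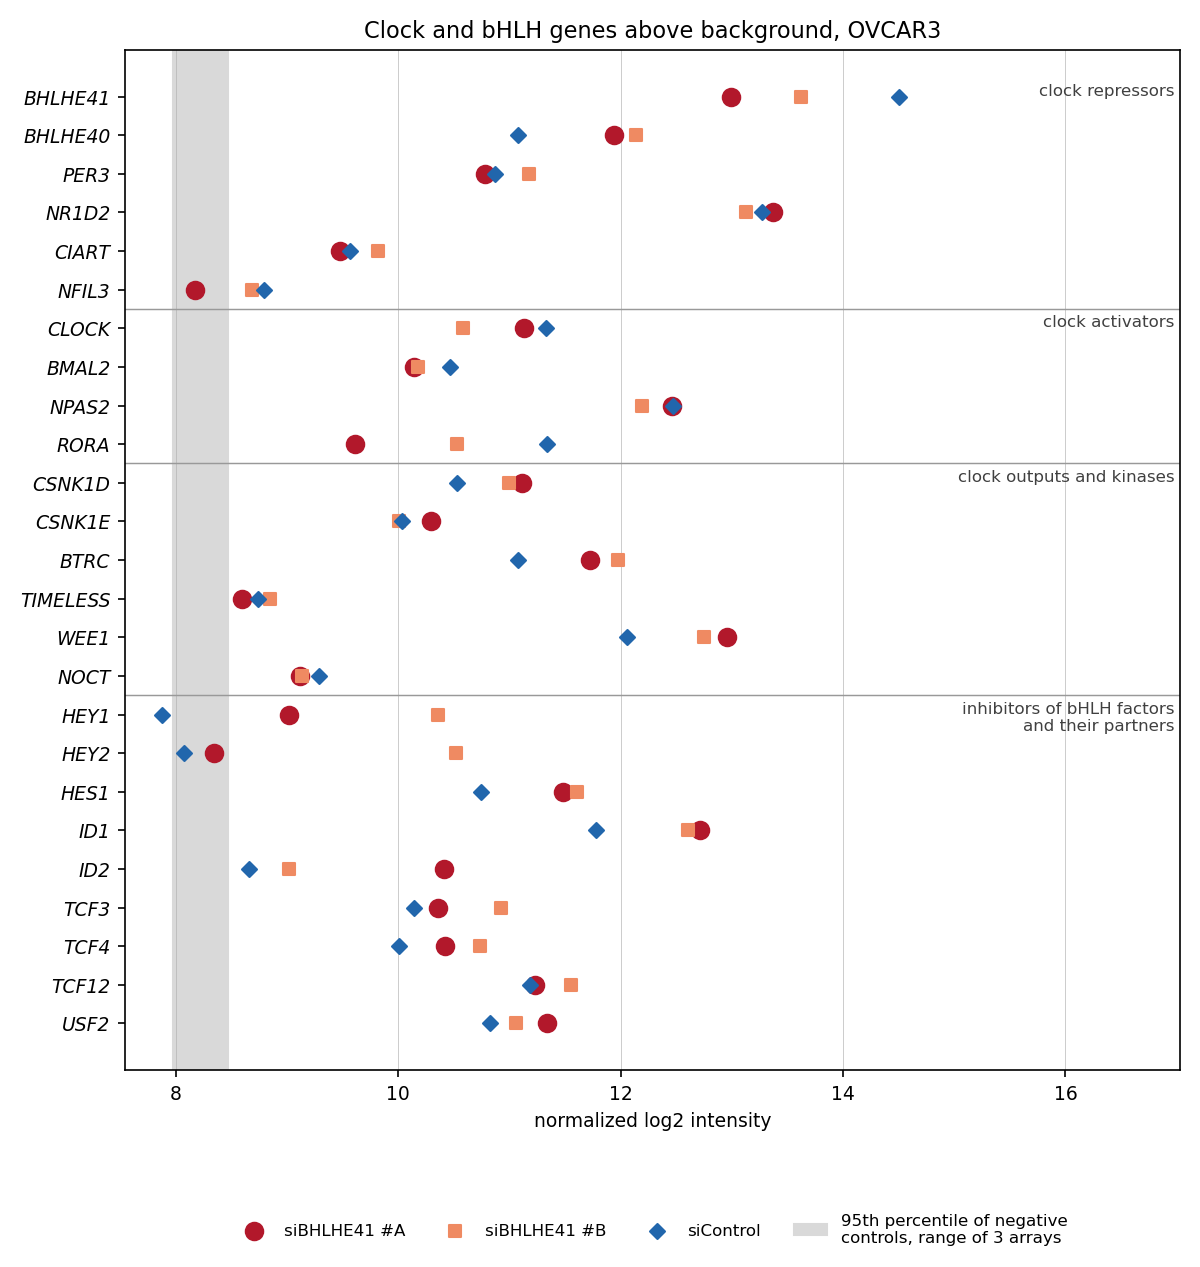
Normalized log2 intensity (horizontal axis) of the clock and bHLH genes above background in OVCAR3, with a circle for siBHLHE41 #A, a square for siBHLHE41 #B and a diamond for siControl, 1 array each. BHLHE41 and RORA lie left of siControl with both siRNAs, while BHLHE40, WEE1, BTRC, HEY1, HES1 and ID1 lie right of it, and the grey band spans the background of the 3 arrays.

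The site to which BHLHE41 is known to bind is the E-box CACGTG, a palindrome that reads alike on both strands. In the RefSeq promoters of build GRCh38.p14, which run from 250 bases before to 50 bases after each start, it was in 7.26% of 35116. By gene, with any promoter of the gene, it was in 4 of the 6 clock repressors above background (BHLHE41, BHLHE40, NR1D2 and CIART). The share by gene over all genes above background was 13.2%. The stretches of the BHLHE41 and BHLHE40 promoters that hold it are shown because the expression of these genes lay in opposite directions, with the E-box in capitals.
BHLHE41, chr12:26125043-26125122, minus strand: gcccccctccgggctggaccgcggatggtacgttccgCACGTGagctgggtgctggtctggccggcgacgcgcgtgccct
BHLHE40, chr3:4979187-4979266, plus strand: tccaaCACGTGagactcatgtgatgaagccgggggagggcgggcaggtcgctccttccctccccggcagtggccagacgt
The E-box of BHLHE41 lies at positions -48 to -43 from the start and that of BHLHE40 at positions -245 to -240. Across genes with a promoter in the table the shares lay close together, with the E-box in 13.2% of 6205 genes above background, in 14.1% of the 192 that were over 1.5-fold and in 13.1% of the 107 that were under 0.66-fold with both siRNAs. A match in these letters is a description of the sequence and was not tested for binding.

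The 20 genes furthest below siControl by the smaller of both differences were led by secreted defence proteins and cytokines. PI3 (elafin, an inhibitor of neutrophil elastase) read 12.82 and 11.98 against 15.89, a mean difference of -3.48 ± 0.59 (SD, n = 2 siRNAs). It was the lowest in p of all genes above background, for which limma gave 4.24e-05 unadjusted (adjusted p = 0.783). LCN2 (lipocalin 2, which withholds iron-binding siderophores from bacteria) read 9.46 and 9.52 against 11.63, and it differed by an SD of only 0.05 between the siRNAs. SERPINE2, an inhibitor of thrombin and plasminogen activators, read 9.02 and 8.83 against 10.82. MAP1B, a microtubule-binding protein of neurons, read 9.45 and 9.59 against 11.31, and LRP8, a receptor for reelin and apolipoprotein E, read 9.37 and 9.19 against 11.02. The remaining genes in the 20 included the lipid genes GPAT3, which starts triglyceride assembly, and THRSP, a partner of fatty acid synthesis. GPAT3 read 7.64 and 7.48 against 9.03, at least 1.75-fold lower, and THRSP read 7.53 and 8.49 against 9.75, where #A was not above background. RDH10, which makes retinal from retinol, read 10.65 and 10.77 against 12.02. BLVRB, a biliverdin reductase, read 7.42 and 7.76 against 8.96, at least 1.67-fold lower, and CYP4F11, which oxidizes fatty acids, read 9.12 and 8.68 against 10.31. In the mean of both siRNAs the aspartic protease CTSE was at least 2.78-fold lower and the endosomal GTPase RAB7B at least 2.2-fold lower. USP12, a deubiquitinase, read 8.39 and 8.90 against 10.09.

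The 20 genes furthest above siControl held developmental factors, surface proteins and signaling enzymes. NPAS3, a bHLH-PAS factor of the brain, read 9.16 and 9.89 against a siControl value of 7.05 that was not above background, so it was at least 2.55-fold higher. LYPD1, a GPI-anchored modulator of nicotinic receptors, read 12.95 and 12.36 against 10.63, a mean difference of +2.02 ± 0.42 (SD, n = 2 siRNAs). CBX6, a Polycomb protein, read 9.75 and 9.81 against 8.06, at least 3.05-fold higher. SOX4, a factor of progenitor cells, read 9.58 and 9.59 against 8.22 and differed by only 0.01 between the siRNAs. DLX5, a homeobox factor, read 11.87 and 11.38 against 10.09. PRKACB, a catalytic subunit of protein kinase A, read 10.33 and 9.78 against 8.42, and CYTH3, an exchange factor for ARF GTPases, read 12.89 and 13.21 against 11.55. Further genes of this group were ZDHHC20, a palmitoyl transferase (11.51 and 12.35 against 10.04), the potassium channel KCNH7 (12.26 and 12.11 against 10.77), the LIM protein CSRP2 (11.31 and 11.56 against 10.06) and the ciliary transport protein IFT46 (10.06 and 10.44 against 8.72). NCKAP5, FAM234A, RNF180 and SPA17 had mean differences of +1.89, +1.37, +1.30 and +1.29. LRRC17, at 9.60 and 9.16 against 7.78, was at least 2.31-fold higher.

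Mucosal defence genes and cytokines lay mainly below siControl. Other immune lists lay near it, with medians of -0.04 for 12 type I interferon-stimulated genes and 0.10 for 12 antigen presentation genes above background. After centring on the housekeeping list these medians were 0.28 and 0.42. Of the 8 mucosal defence genes above background, 5 (62.5%, where 1.85% of all genes above background were) were under 0.66-fold for each siRNA while none was over 1.5-fold, and the median difference was -1.48 for #A, -0.78 for #B, where the median gene above background was at -0.01 and 0.01. The direction of the list remained after centring on the housekeeping list, where 3 of 8 were under 0.66-fold. Besides PI3 and LCN2 these were the calprotectin subunits S100A8 and S100A9, which bind zinc and calcium, and the protease inhibitor SLPI. S100A8 read 9.23 with #A and 12.12 with #B, against 13.14 with siControl. S100A9 read 8.50 and 11.18 against 11.94. Both calprotectin genes were thus far lower with #A than with #B, which is the reverse of the chemokines CCL20, CXCL1 and CXCL8 below. SLPI read 15.24 and 15.22 against 16.02, a difference of -0.79 ± 0.01 (SD, n = 2 siRNAs). WFDC2, the source of the tumour marker HE4 and a relative of PI3 and SLPI, read 13.00 and 13.85 against 13.15.

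Of 32 measured cytokines and chemokines, 10 were above background, 4 of these (40.0%, again beside 1.85%) were under 0.66-fold for each siRNA while none was over 1.5-fold, and the median was -0.62 for #A, -1.42 for #B. The median over both siRNAs, -1.12, was -0.80 after centring on the housekeeping list, where 2 were over 1.5-fold. CCL20, which draws lymphocytes and dendritic cells through CCR6, read 10.09 with #A and 6.97 with #B, against 12.004 with siControl. Its value with #B was below background, so the size of its mean difference (-3.48 ± 2.20, SD, n = 2 siRNAs) rests on a dim array. IL6 read 8.57 and 7.71 against 10.34, and again the #B value was below background. CXCL1, a neutrophil attractant, read 12.68 and 11.39 against 13.64. CSF1, the growth factor of macrophages, read 8.14 and 9.08 against 10.63, and here it was the #A value that was below background. CXCL8 (interleukin 8) read 12.21 and 8.72 against 12.77, which is a difference of -0.56 with #A and -4.05 with #B, and it did not count as past the ratio. CXCL2 read 9.21 and 9.32 against 9.89. In contrast, TNFSF10 (the death ligand TRAIL) read 11.53 and 10.22 against 9.68, and CCL28, a mucosal chemokine, read 13.45 and 13.85 against 13.04. Below background, 5 further members were under 0.66-fold for each siRNA, among them CCL2, CXCL10 and LIF, and none was over 1.5-fold.

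Genes that NF-κB is known to induce as its own brakes showed a smaller difference. The list of NF-κB subunits and feedback genes had 12 members above background, 9 of them below siControl with both siRNAs. Of the 12, 1 (TNFAIP3) was under 0.66-fold (beside 1.85% of all genes above background) and none over 1.5-fold. Their median was -0.43, and -0.11 after centring on the housekeeping list. TNFAIP3, the A20 deubiquitinase that ends NF-κB signaling, read 12.16 and 10.75 against 13.20. NFKBIA, which encodes IκBα, read 12.90 and 11.998 against 13.26, and ICAM1, an adhesion molecule for leukocytes, read 10.47 and 9.65 against 11.05. TNFAIP2 read 11.73 and 11.26 against 12.24. The subunits were close to siControl, with NFKB1 at 10.86 and 10.56 against 10.76 and RELA at 10.58 and 10.51 against 10.89. Of the 7 complement genes above background, CFB, the protease of the alternative pathway, read 9.20 and 7.39 against 10.92, below background with #B. C5AR1, the receptor for C5a, read 8.06 and 8.07 against 9.33, where #A was below background and #B just above. C3 read 15.60 and 15.43 against 15.92 and CD55 13.53 and 12.90 against 13.72. Among 19 receptors for interleukins and TNF ligands above background, TNFRSF10A and LIFR were under 0.66-fold with both siRNAs, beside 1.85% of all genes above background. TNFRSF10A, a TRAIL receptor, read 9.65 and 8.74 against 10.64, and LIFR read 9.58 and 9.36 against 10.21. OSMR (8.64 and 7.95 against 9.08) was past the ratio with #B only, and IL10RB (10.37 and 9.80 against 9.41) was past it upwards with #A only. The median of the receptors, -0.09, turned to 0.23 after centring on the housekeeping list. Limma's smallest adjusted p over the members above background of these lists was 0.783, and no call was made.

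**Figure D3:**
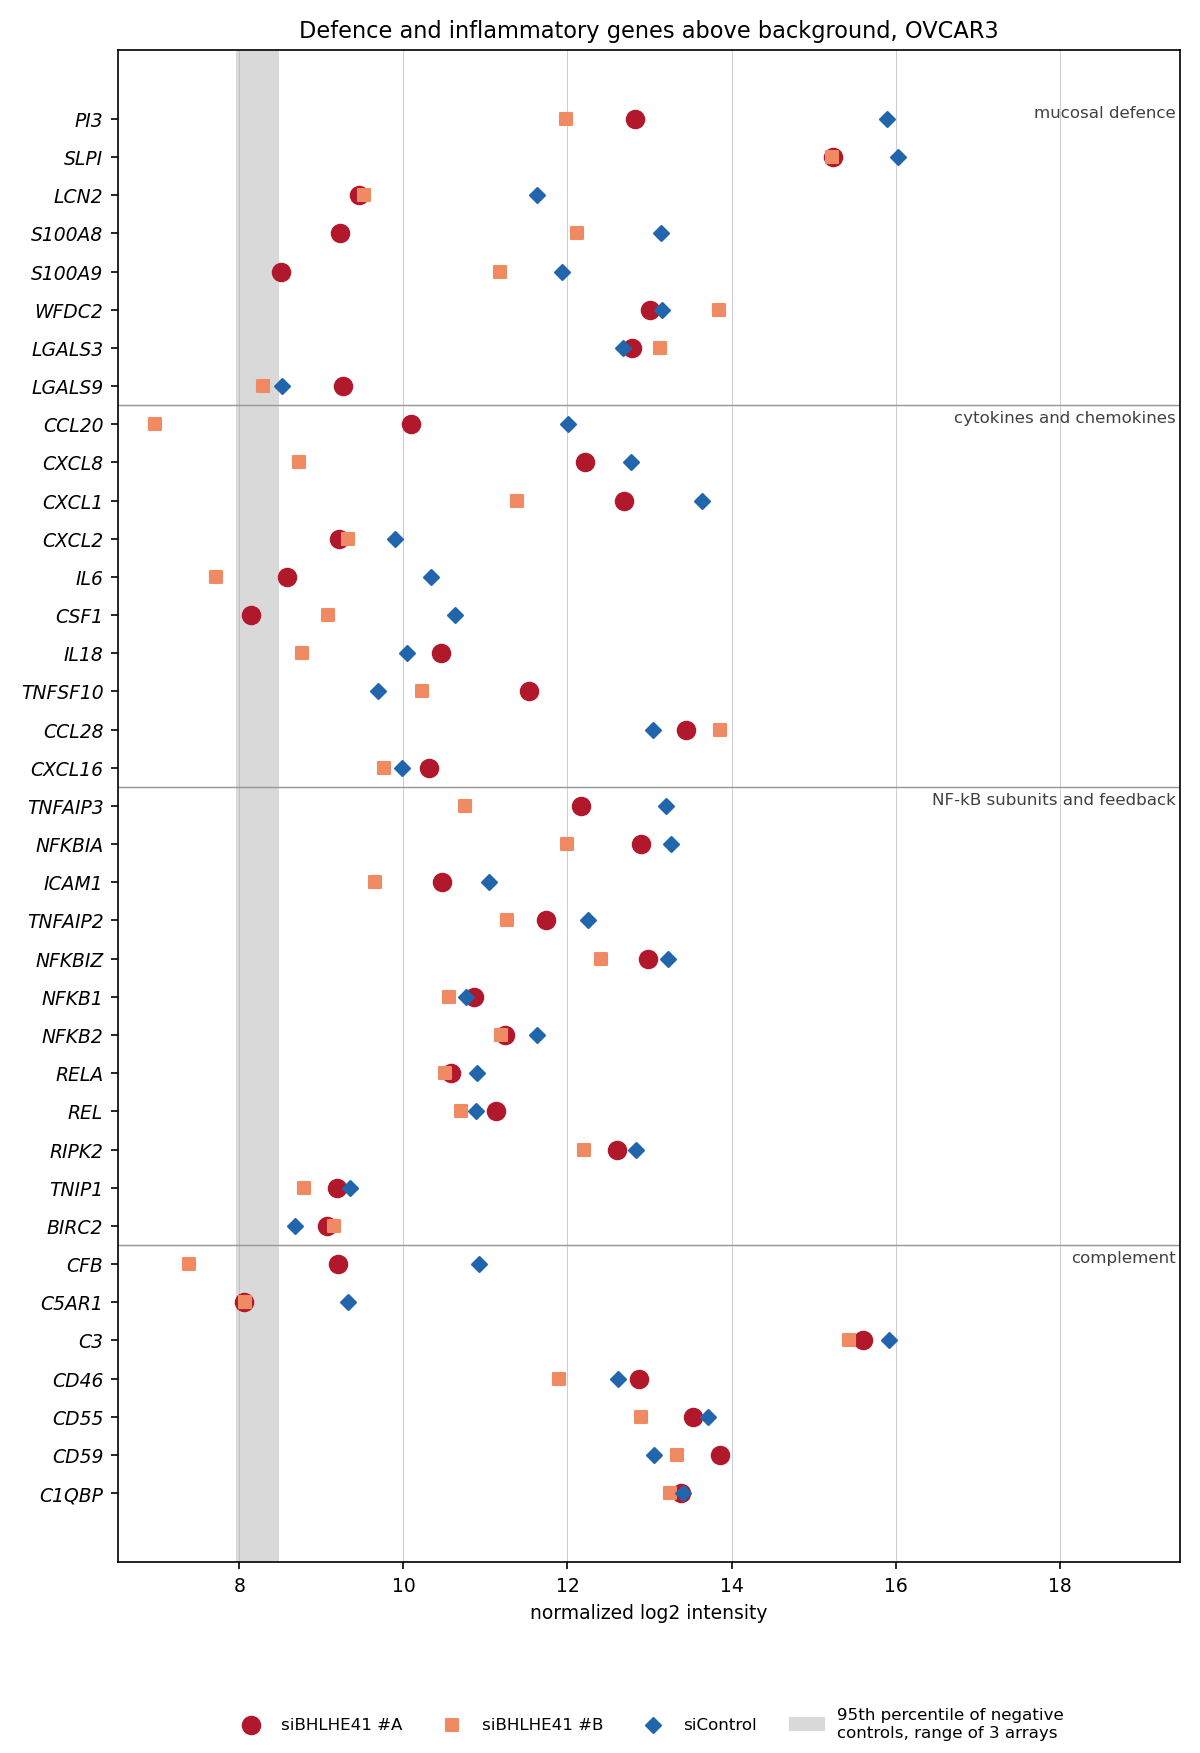
Normalized log2 intensity (horizontal axis) of defence, cytokine, NF-κB and complement genes above background in OVCAR3, with a circle for siBHLHE41 #A, a square for siBHLHE41 #B and a diamond for siControl, 1 array each. PI3, LCN2, CXCL1, TNFAIP3 and CFB lie left of siControl with both siRNAs, CXCL8 and CCL20 lie furthest left with #B, and S100A8 and S100A9 lie furthest left with #A.

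The binding site of NF-κB was searched in the same promoters, on both strands, as GGG, then any 2 bases, then TTTCC. It was present in 1.91% of 35116 promoters. By gene, with any promoter in the table, it was in 4 of the 7 cytokine genes above background listed there (IL6, CCL20, CXCL1 and CXCL2). By the same count it was in 7 of 11 NF-κB subunit and feedback genes, beside 3.14% of all genes above background. These were NFKB1, NFKB2, REL, NFKBIA, NFKBIZ, TNFAIP3 and TNIP1. Of these 7 only TNFAIP3 was past the ratio with both siRNAs, and of the 4 cytokine genes CXCL2 was not. Stretches are shown for 4 of the genes with the motif, picked as all under 0.66-fold with both siRNAs, with each match in capitals.
CCL20, chr2:227813728-227813807, plus strand: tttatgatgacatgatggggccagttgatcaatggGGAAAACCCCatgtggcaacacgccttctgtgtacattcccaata
IL6, chr7:22727092-22727171, plus strand: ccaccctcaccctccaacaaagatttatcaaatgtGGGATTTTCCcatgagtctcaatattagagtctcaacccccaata
CXCL1, chr4:73869279-73869358, plus strand: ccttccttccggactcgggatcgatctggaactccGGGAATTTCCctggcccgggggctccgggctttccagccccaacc
TNFAIP3, chr6:137867169-137867248, plus strand: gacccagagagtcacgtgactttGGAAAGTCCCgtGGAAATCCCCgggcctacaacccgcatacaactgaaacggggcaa
The TNFAIP3 stretch holds 2 matches on the minus strand and, in lower case before them, the letters of an E-box. The motif was present in 3.14% of the genes above background, in 1.56% of those over 1.5-fold (3 of 192) and in 6.54% of those under 0.66-fold (7 of 107). These shares are descriptions of small counts and were not tested.

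Genes of the antioxidant response lay below siControl together with the metallothioneins. NRF2 (gene NFE2L2) is the factor that switches on genes for glutathione, thioredoxin and NADPH when KEAP1 no longer holds it, and metallothioneins are small proteins that bind zinc and copper and are induced by metals. Of 22 measured members above background, 8 (36.4%, beside 1.85% of all genes above background) were under 0.66-fold for each siRNA while none was over 1.5-fold, and 18 of 22 were below siControl with both. The 8 were SLC7A11, GCLC, GCLM and ME1 with the metallothioneins MT1G, MT1H, MT1M and MT2A. As given below, metallothioneins are not independent readings, so the share of 36.4% counts related probes more than once. The median difference of the list was -0.47 for #A, -0.80 for #B. After centring on the housekeeping list the median was -0.34, with 1 member under 0.66-fold and 1 over 1.5-fold, so the count depends on the scaling while the median stayed below 0.

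SLC7A11, the cystine importer that feeds glutathione synthesis, was the member furthest from siControl. It read 9.38 with #A and 9.34 with #B, against 11.29 with siControl, a mean difference of -1.93 ± 0.03 (SD, n = 2 siRNAs), to which limma gave an adjusted p of 0.858. The enzyme of glutathione synthesis followed with both of its subunits. GCLC, the catalytic subunit, read 10.56 and 10.41 against 11.26, and GCLM, the modifier subunit, read 8.69 and 8.69 against 9.51. ME1, a source of NADPH, read 12.37 and 12.08 against 12.98. NQO1, a quinone reductase, read 14.03 and 13.66 against 14.51, and TXNRD1, thioredoxin reductase, read 15.01 and 14.24 against 15.09, so both were past the ratio with #B only. AKR1C3, an aldo-keto reductase, read 9.02 and 7.79 against 9.33. FTL, the ferritin light chain, lay in the other direction at 13.85 and 13.87 against 13.41. NFE2L2 read 12.27 and 11.68 against 11.95 and KEAP1 read 9.31 and 9.28 against 9.38, so the transcripts of the regulators differed little from siControl.

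All 6 metallothioneins above background read lower than siControl with both siRNAs. MT2A read 15.72 and 15.59 against 16.41, MT1G read 14.05 and 13.85 against 14.83, and MT1H read 12.04 and 12.48 against 13.27. MT1M read 10.74 and 10.65 against 11.63. MT1X, at 15.25 and 15.19 against 15.71, did not reach the ratio, and MT1F, at 11.77 and 12.90 against 13.07, did with #A only. MT1E, at 7.27 and 7.31 against 8.45, was above background in siControl only, at least 1.17-fold lower. The metallothionein genes are near-identical copies that lie next to each other, and their probes may read each other's RNA, so they are not independent readings and the level of any member is uncertain. After centring on the housekeeping list, which added 0.30 to each difference with #A and 0.34 with #B, MT1F read 0.17 above siControl with #B and the other 5 stayed below with both siRNAs.

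**Figure D4:**
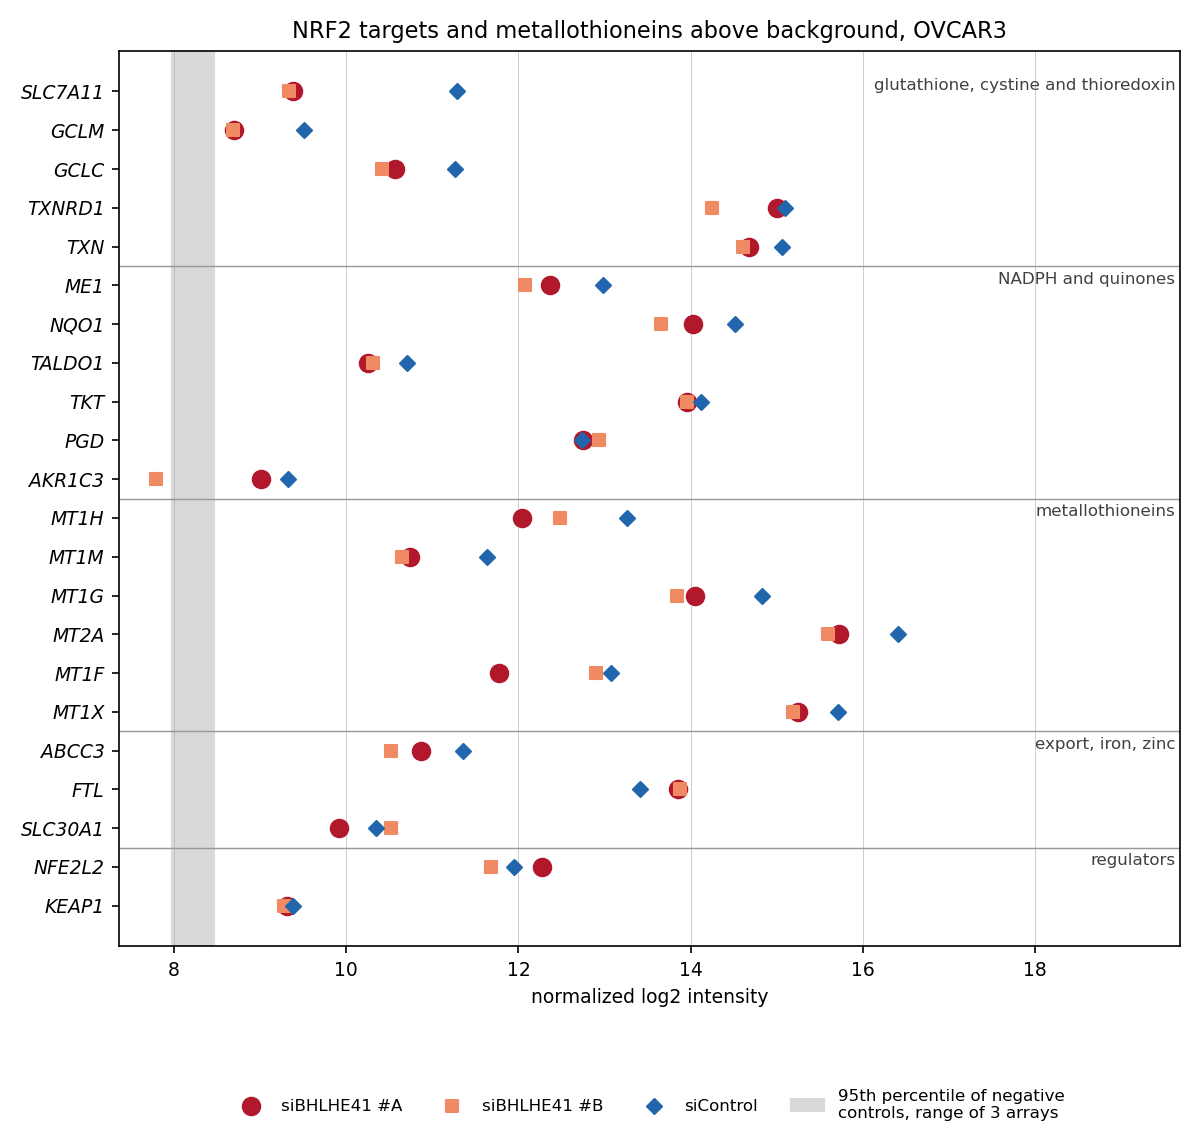
Normalized log2 intensity (horizontal axis) of NRF2 targets and metallothioneins above background in OVCAR3, with a circle for siBHLHE41 #A, a square for siBHLHE41 #B and a diamond for siControl, 1 array each. SLC7A11 lies furthest left of its siControl value with both siRNAs, FTL lies right of it, and NFE2L2 and KEAP1 lie close to it.

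The core of the antioxidant response element, TGACNNNGC on both strands, was present in 13.3% of 35116 promoters. By gene, with any promoter in the table, it was in 8 of the 17 members above background listed there. These were KEAP1, GCLM, TXNRD1, PGD, ME1, MT1X, MT2A and SLC30A1. KEAP1, PGD, MT1X and SLC30A1 were not past the ratio with both siRNAs, and SLC7A11 was not among the 8. The share by gene over all genes above background was 19.3%. Stretches of 4 members are shown, of which GCLM, ME1 and MT2A were under 0.66-fold with both siRNAs and TXNRD1 with #B only, with the match in capitals.
GCLM, chr1:93909431-93909510, minus strand: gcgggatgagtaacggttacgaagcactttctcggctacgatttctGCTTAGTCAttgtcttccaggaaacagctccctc
ME1, chr6:83431145-83431224, minus strand: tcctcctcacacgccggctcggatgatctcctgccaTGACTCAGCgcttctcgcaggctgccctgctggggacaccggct
MT2A, chr16:56608444-56608523, plus strand: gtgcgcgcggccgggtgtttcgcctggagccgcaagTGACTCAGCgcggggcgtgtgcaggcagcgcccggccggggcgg
TXNRD1, chr12:104215644-104215723, plus strand: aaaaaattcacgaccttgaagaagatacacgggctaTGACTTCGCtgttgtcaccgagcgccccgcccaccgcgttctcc
The motif was present in 19.3% of the genes above background, in 18.2% of those over 1.5-fold and in 27.1% of those under 0.66-fold with both siRNAs, a description without a test.

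Carriers of amino acids and metals were mixed. Of 26 members above background, 4 were under 0.66-fold and 1 was over 1.5-fold for each siRNA. Of all genes above background, 1.85% were under 0.66-fold and 3.28% over 1.5-fold. The median of the carriers, -0.17, turned to 0.15 after centring on the housekeeping list. Besides SLC7A11 the lower members were SLC6A6, the taurine carrier (8.06 and 7.64 against 9.24, at least 2.02-fold lower), SLC39A14, an importer of zinc and iron (10.55 and 11.05 against 11.66), and STEAP2, a metalloreductase (8.98 and 8.95 against 9.71). SLC7A5, the carrier of large neutral amino acids, was the member over 1.5-fold at 13.64 and 13.25 against 12.55. SLC7A11 and SLC7A5 thus lay in opposite directions, while SLC3A2, the partner of both, read 14.21 and 13.99 against 14.10.

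Of 14 genes of mesenchymal state and matrix above background, 5 (35.7%, beside 3.28% of all genes above background) were over 1.5-fold for each siRNA while none was under 0.66-fold, and the median was +0.54 for #A, +0.58 for #B. LTBP1, which stores TGF-beta in the matrix, read 13.36 and 12.79 against 11.46, a mean difference of +1.61 ± 0.41 (SD, n = 2 siRNAs). CALD1, an actin-binding regulator of contraction, read 12.80 and 11.87 against 10.95. COL18A1, the source of endostatin, read 8.56 and 8.84 against 7.93, at least 1.44-fold higher. CDH2 (N-cadherin) read 12.51 and 11.74 against 11.19 and was just short of the ratio with #B. Other matrix genes did not share this direction with #B, where FN1 (fibronectin) read 12.52 with #A and 10.79 with #B against 12.21, and THBS1 read 11.84 and 10.09 against 11.37. The list therefore holds members that the siRNAs placed on opposite sides of siControl. COL18A1 and FBN2, which count among the 5, were not above background in siControl and passed the filter only through the knockdown arrays, and of the 12 members above background in siControl 3 were over 1.5-fold. Of 11 integrins and laminins above background, none was over 1.5-fold and 1 was under 0.66-fold, and their median was +0.22 for #A, -0.47 for #B. None of 7 matrix proteases and their inhibitors was past the ratio in either direction. Among all genes above background, 3.28% were over 1.5-fold and 1.85% under 0.66-fold.

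Epithelial junction genes also read more often above than below siControl. Of 33 members above background, 20 were above siControl with both siRNAs and 5 below, the medians being +0.24 for #A, +0.38 for #B, and 1 member was past the ratio in each direction. Among all genes above background, 3.28% were over 1.5-fold and 1.85% under 0.66-fold. After centring on the housekeeping list 12 of the 33 were over 1.5-fold and 1 was under 0.66-fold, beside 929 and 41 of all 7345 genes above background. DSG2, a desmosomal cadherin, read 11.41 and 11.42 against 10.44. CLDN1, a tight junction claudin, read 15.12 and 14.74 against 16.14, a mean difference of -1.21 ± 0.28 (SD, n = 2 siRNAs). CDH1 (E-cadherin) read 10.15 and 10.61 against 9.96. The epithelial transcription factors GRHL3 (8.38 and 9.04 against 7.85) and ELF3 (8.49 and 9.54 against 8.28) were past the ratio with #B only. GRHL3 was above background with #B only and stands in the list through that array.

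Among 12 mucins and surface glycoproteins above background, LYPD1, L1CAM and VTCN1 were over 1.5-fold for each siRNA (beside 3.28% of all genes above background). PROM1 was under 0.66-fold for each (beside 1.85%), and the median of the 12 was +0.30 for #A, +0.45 for #B. After centring on the housekeeping list 6 were over 1.5-fold and none was under 0.66-fold, PROM1 included. L1CAM, a neural adhesion molecule found in aggressive ovarian and endometrial carcinomas, read 10.93 and 10.78 against 9.09. VTCN1 (B7-H4, a checkpoint ligand abundant in serous carcinoma) read 14.60 and 15.65 against 13.71. PROM1 (CD133) read 8.06 and 8.55 against 9.22, and it was not above background with #A. PODXL, a sialomucin, read 11.11 and 12.39 against 10.83 and was past the ratio with #B only. MUC16 read 14.43 and 14.68 against 14.39, and SLC34A2, a phosphate carrier of serous tumours, read 15.04 and 15.35 against 15.19, so these antigens of the serous lineage lay close to siControl. Of the serous and Mullerian lineage list, 2 of 19 members above background were over 1.5-fold with both siRNAs (beside 3.28%). These were MEIS1, a HOX partner (10.95 and 11.35 against 10.16), and EMX2, a homeobox factor of the Mullerian duct (12.21 and 12.24 against 11.44). BHLHE41, which stands in this list as well, was the member under 0.66-fold. KLK7, a kallikrein protease, read 9.21 and 9.69 against 8.68.

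Neuronal genes above background were few, 11 of 51 measured. NPAS3 and SOX5, a factor of neural and cartilage progenitors (9.86 and 9.99 against 8.98), were over 1.5-fold with both siRNAs. NLGN4X, a synaptic adhesion protein (8.79 and 8.86 against 9.64), was under 0.66-fold with both. NPAS3 was not above background in siControl and passed the filter only through the knockdown arrays. Of the 10 members above background in siControl, 1 was over 1.5-fold and 1 under 0.66-fold. Among all genes above background the shares were 3.28% and 1.85%. RBFOX3, the splicing factor known as NeuN, read 10.24 with #A and 8.30 with #B, against 8.44 with siControl, so it was far higher with #A alone.

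In the EGF receptor family 2 of 6 genes above background, both of them ligands, were under 0.66-fold for each siRNA (beside 1.85% of all). After centring on the housekeeping list TGFA alone was, and ERBB4 and BTC were over 1.5-fold. TGFA, a ligand of EGFR, read 7.98 and 7.79 against 9.14, above background in siControl only, and was at least 1.89-fold lower. NRG1, the ligand of ERBB3 and ERBB4, read 11.82 and 10.62 against 12.49. The receptor ERBB4 read 13.38 and 12.50 against 12.08, and BTC, another EGFR ligand, read 10.47 and 10.92 against 10.11. Of 10 genes of ERK feedback above background, only DUSP5, the nuclear phosphatase of ERK, was under 0.66-fold (beside 1.85% of all), and none was over 1.5-fold. DUSP5 read 8.61 and 9.9972 against 11.55 (mean -2.25 ± 0.98, SD, n = 2 siRNAs). PHLDA1 read 8.49 and 8.01 against 8.91, while the ephrin receptors EPHA2 (10.09 and 10.28 against 9.61) and EPHA4 (9.26 and 9.43 against 8.79) lay above siControl.

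Genes of cell division were close to siControl. Of 59 mitotic genes above background, 1 (HMMR, a spindle protein, at 10.57 and 10.66 against 9.52) was over 1.5-fold and 1 (MAD2L1, a spindle checkpoint protein, at 10.21 and 10.39 against 11) under 0.66-fold for each siRNA. These counts stand beside 3.28% and 1.85% of all genes above background. The median of the mitotic genes was -0.26 for #A, 0.05 for #B, and that over both, -0.11, turned to 0.21 after centring on the housekeeping list. None of 41 DNA replication genes was past the ratio in either direction, with medians of -0.15 and -0.09 (over both -0.16, and 0.16 after that centring), and PCNA, the replication clamp, read 12.75 and 11.75 against 13.22.

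In sterol metabolism 2 of 19 genes above background were over 1.5-fold and 1 was under 0.66-fold for each siRNA. For all genes above background these shares were 3.28% and 1.85%. TM7SF2, a sterol reductase, read 12.97 and 13.14 against 11.52, a mean difference of +1.53 ± 0.12 (SD, n = 2 siRNAs). LSS, which closes the sterol ring, read 9.63 and 9.85 against 8.64. STARD4, a cholesterol carrier, read 9.64 and 9.82 against 10.52. SC5D, a sterol desaturase, read 9.65 with #A and 11.27 with #B, against 11.13 with siControl, and so was lower with #A only. The regulators did not stand out, with SREBF1 at 13.10 and 13.27 against 13.16. Of 27 endocytic and lysosomal genes above background, LRP2 (megalin) read 9.91 and 11.99 against 8.65, ATP6V0D2, a proton pump subunit, read 10.68 and 9.43 against 8.57, and LRP8 was lower as given above. CTSV, a cysteine protease, read 13.87 and 14.60 against 13.48.

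A total of 109 genes were above background with both siRNAs and not with siControl, and 103 were above it in siControl only. Those above background with both siRNAs only included NPAS3, CBX6 and LRRC17 as given above. MUC15, a membrane mucin, read 9.15 and 9.12 against 6.89, at least 1.95-fold higher, with a limma adjusted p of 0.783. LRCH2 was at least 2.04-fold higher, NAALADL2 at least 1.38-fold, FILIP1L at least 1.59-fold, the Wnt-linked repressor TCF7L1 at least 1.26-fold, the prohormone-processing enzyme CPE at least 2.36-fold and CEP170B at least 1.76-fold. Genes above background in siControl only included, besides CTSE, GPAT3, RAB7B and BLVRB, the pattern-recognition protein PTX3 (at least 1.82-fold lower), the chemokine CCL2 (at least 1.5-fold lower), SLC6A6, TGFA, MT1E and DDIT4, a stress-induced brake on mTOR (at least 1.02-fold lower). These bounds are for the mean of both siRNAs, set the dim arrays at their own background and are smaller than the measured mean differences.

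Some genes differed widely between the siRNAs. Of the genes above background, 113 read over 1 higher with #A than with #B on the log2 scale and 146 over 1 lower. The genes furthest higher with #A were CXCL8 (12.21 against 8.72 with #B), CCL20 and SULF1, an editor of heparan sulfate, which read 10.01 with #A and 7.17 with #B, against 9.49 with siControl. Those furthest lower with #A were S100A8, S100A9 and OSTM1, a lysosomal membrane protein, which read 8.50 with #A and 11.05 with #B, against 11.08 with siControl. With 1 array per siRNA these differences have no replicate check.

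Gene lists with general functions lay near siControl. Of 44 cytosolic ribosomal protein genes above background, 33 were above siControl with both siRNAs, with a median of +0.14, and only RPS19 was past the ratio. It was over 1.5-fold, as were 3.28% of all genes above background. Of 33 nucleolar genes of ribosome biogenesis, 26 were below siControl with both siRNAs, with a median of -0.25, and of 37 heat shock and proteasome genes 29 were below, with a median of -0.25. Both of the lower medians turned to +0.07 after centring on the housekeeping list, as did the sign of the ERK feedback and JAK, STAT and SOCS medians (-0.30 for each, +0.02 after centring). The housekeeping list itself had a median of -0.13 over 24 genes above background, with POLR2A under 0.66-fold (beside 1.85% of all genes above background). Centring each array on the median level of that list brought the median of its differences to +0.19, past 0, and changed the sign of the mean difference of 2624 genes above background (35.7%).

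**Figure D5:**
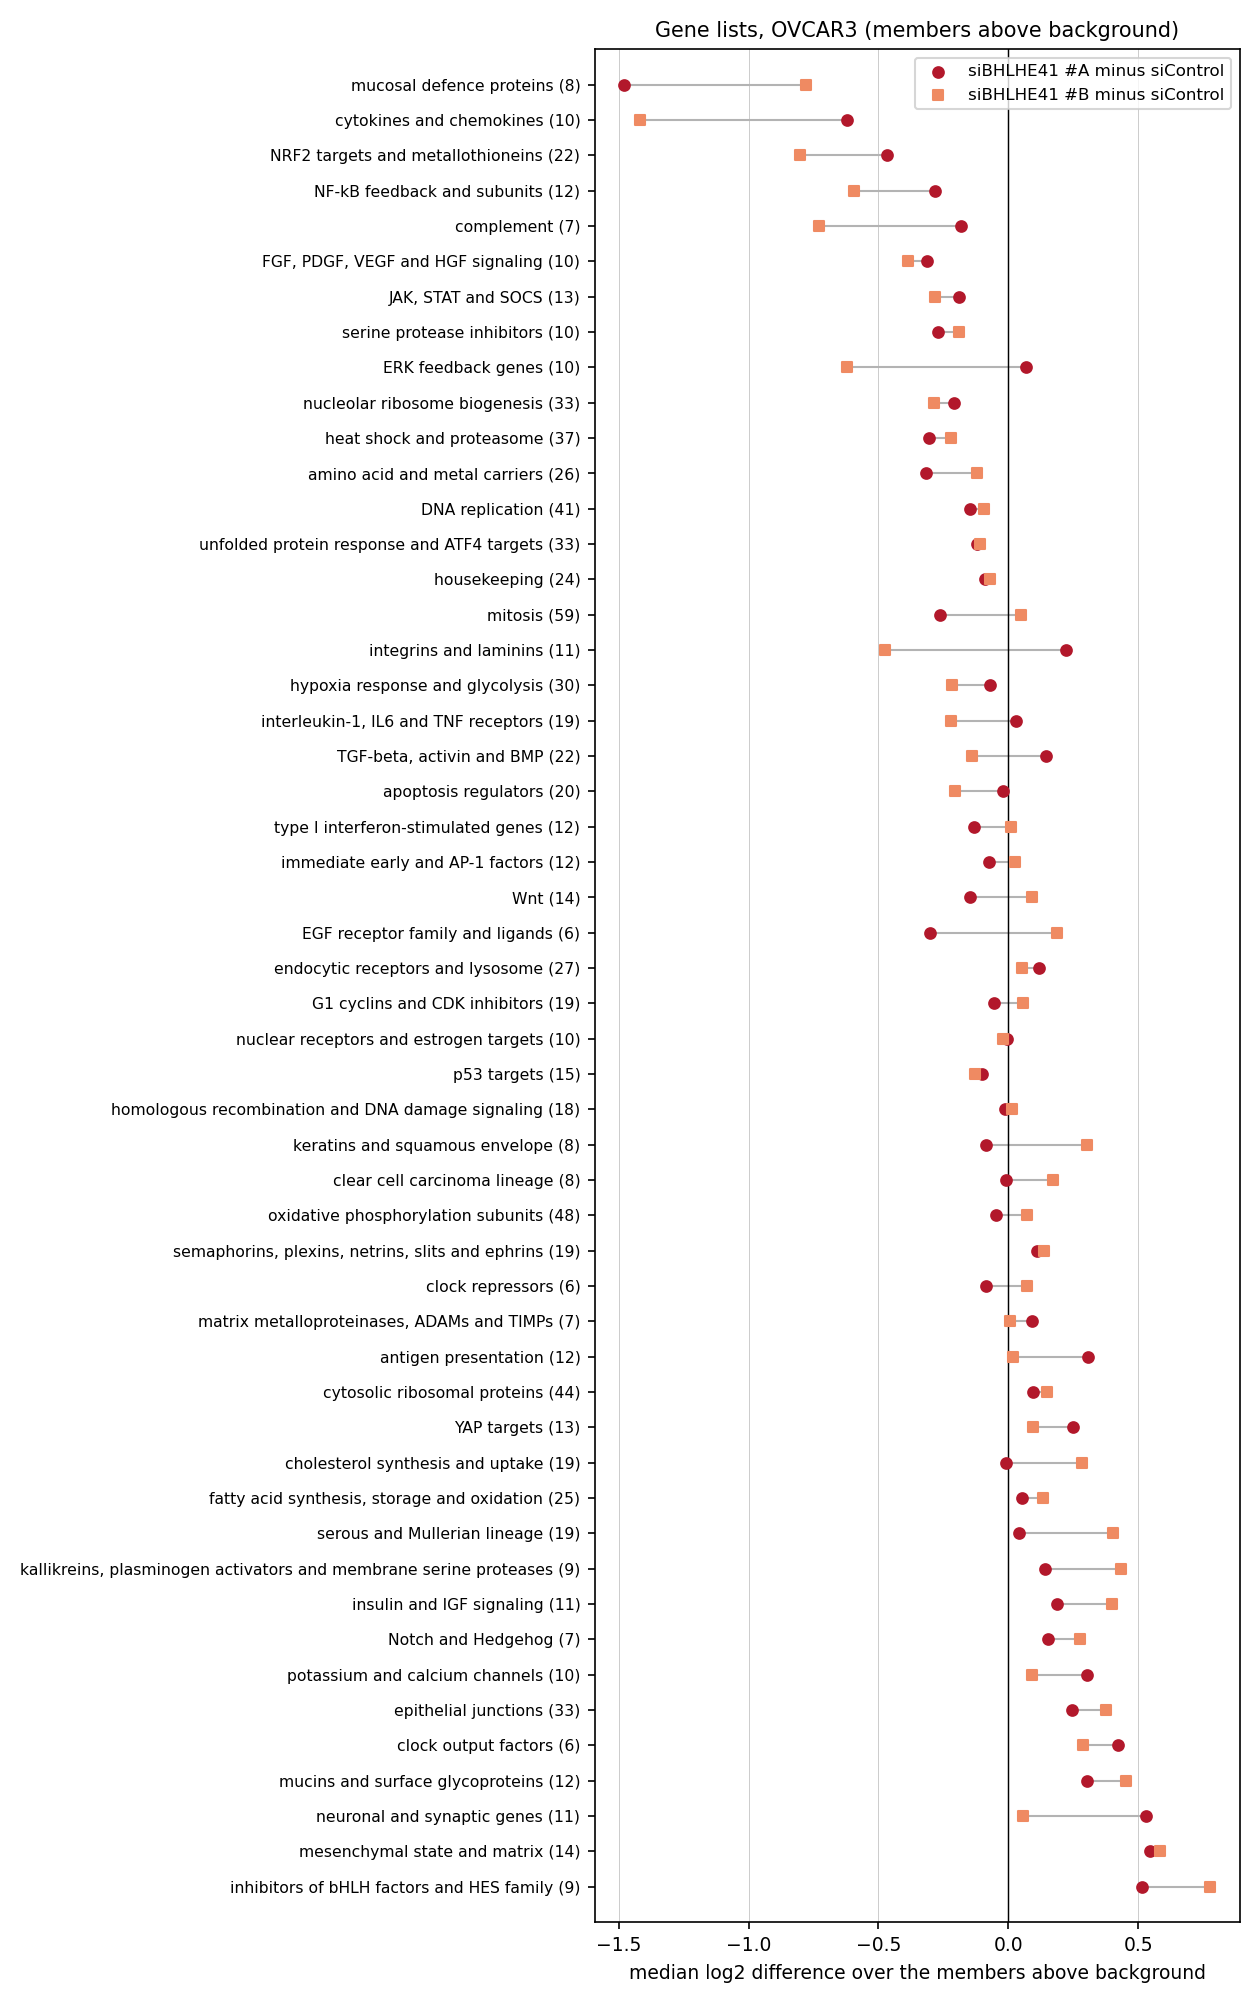
Median log2 difference from siControl (horizontal axis) over the members above background of each gene list with 6 or more such members (their number in parentheses), with a circle for siBHLHE41 #A and a square for siBHLHE41 #B. The mucosal defence, cytokine and NRF2 lists stand at the top with medians below 0 for both siRNAs, and the lists of mesenchymal genes and of bHLH inhibitors stand at the bottom with medians above 0.5.

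Set beside RMG1 with siCPNE8, some of these genes lay in the same direction. Background was judged on the OVCAR3 arrays only, so RMG1 values in this comparison may lie at background. Of the 241 genes over 1.5-fold in OVCAR3, 27 (11.2%) were also over 1.5-fold with both siCPNE8 siRNAs, which is 15.2% of the 178 such genes in RMG1 among the same 7345 genes, where 2.42% were. Of the 136 under 0.66-fold, 11 (8.09%) were also under 0.66-fold in RMG1, which is 8.46% of 130, where 1.77% were. In the opposite direction lay 8 of the 241 (3.32%, where 1.77% were lower in RMG1) and 6 of the 136 (4.41%, where 2.42% were higher in RMG1). Genes past the ratio in the same direction in both lines included CCL20, CXCL1, CSF1, TNFAIP3, TGFA, NRG1, SERPINE2 and CTSE among the lower ones. Among the higher ones they included ZDHHC20, DLX5, L1CAM, CBX6, PRKACB, TM7SF2, SPA17, IFT46, VTCN1, ID1 and CPE. PI3, LCN2 and LYPD1 were past the ratio in OVCAR3 only. CFB was past it in the opposite direction in RMG1 (0.68 and 0.74), and so were LSS (-0.81 and -0.72) and ATP6V0D2 (-0.62 and -1.26), which were higher in OVCAR3. The differences from siControl in RMG1 were 0.52 and 0.74 for LCN2 and -0.86 and -0.52 for LYPD1. The difference between the knockdowns was -2.76 for LCN2 (unadjusted p = 0.000162) and -3.09 for PI3 (unadjusted p = 0.000748), and limma gave each an adjusted p of 0.999. Across all transcript probes 0 differences between the knockdowns were called at an adjusted p of 0.05, and 527 higher and 394 lower had an unadjusted p under 0.05. Line, targeted gene and siRNA sequence changed together between the experiments and cannot be told apart.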

How the data were processed

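Total RNA of transfected cells was labelled with biotin and hybridised to Affymetrix Clariom S arrays. The authors processed them with Affymetrix Expression Console and RMA (versions and build not given in the sources used here), and the deposited values are normalized log2 intensities for 24351 probes, of which 21448 read transcripts and 612 are negative controls. The values were used as deposited. A symbol was given to 17709 probes, several to 0, and 3739 transcript probes stayed unnamed. Symbols were checked through gene IDs in RefSeq, which changed 0, and 20 genes with more than 1 probe were averaged. Groups came from the sample labels.

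For each gene the siControl value was subtracted from each siBHLHE41 value. A gene was above background when the mean of its siControl value and its siBHLHE41 mean exceeded the average 95th percentile of the negative controls. For a gene not above background in a group, the fold is given as at least the ratio to that background. This fold is between siControl and the mean of both siRNAs. Ratios over 1.5 or under 0.66 with both siRNAs were counted. Limma 3.58.1 in R 4.3.3 was fitted to all 6 arrays in 4 groups with lmFit and eBayes and Benjamini-Hochberg adjustment, so siControl, with 1 array, is assumed to vary like the siRNA pairs, and the number of arrays limits the precision. An exact permutation of 2 arrays against 1 cannot give a p below 0.333 and was not used. Genes named were BHLHE41, the 20 per direction past the ratio with the largest smaller difference, up to 10 per direction above background in a single condition, up to 4 per gene list described, 3 per direction with the largest difference between #A and #B, cell type markers, and members on which a sentence of background turns. The genes, 56 gene lists and tests were chosen with earlier results of these data known. Of 1843 list genes 1642 were measured. Alternatives were quantile normalization, centring on housekeeping genes or on probes above background, other backgrounds and ratios, other limma settings and leaving out each siRNA. Values were computed with Python 3.11.15, numpy 2.4.6, pandas 2.3.3 and matplotlib 3.10.9. Promoter sequences are from RefSeq, build GRCh38.p14.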

Additional observations from a re-analysis of the deposited data

How the results depend on the processing

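The counts of 241 higher and 136 lower genes became 48 and 29 at ratios over 2 and under 0.5, 541 and 379 with the genes at background included, 40 and 24 with the 99th percentile of the negative controls as background, and 929 and 41 with each array centred on the housekeeping list. Using a single siRNA the higher count ranged from 528 to 588 and the lower count from 453 to 466, since agreement between siRNAs was then not required. Quantile normalization, centring on the probes above background and filtering on siControl alone kept both counts within 1.5 times. Limma called 0 probes in all of its settings, the test of the difference between the knockdowns included, with the smallest adjusted p for the knockdown between 0.241 and 0.946. BHLHE41 stayed below siControl under every alternative run, but with centring on the housekeeping list #B did not pass the ratio.

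Of the 114 other genes chosen by the naming rule, centring on the housekeeping list turned the log2 ratio of BMAL2 to 0.0183, the log2 ratio of NPAS2 to 0.17 and the log2 ratio of NOCT to 0.16. Other members given with small differences, such as KEAP1 (0.24), NFKB1 (0.26) and NR1D2 (0.30), also stood above siControl there. With a single siRNA the log2 ratio of SULF1 ranged from -2.32 to 0.51, the log2 ratio of PER3 from -0.0843 to 0.31, the log2 ratio of SC5D from -1.48 to 0.14 and the log2 ratio of RBFOX3 from -0.14 to 1.798, because the siRNAs placed these genes on opposite sides of siControl. Counting list members above background in siControl alone was chosen after seeing the data. No paired analysis was possible because the letters A and B name unrelated siRNAs and each siControl group has 1 array.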
